A study of Mus musculus with 6 samples.

Results

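The genes described here are 9 markers of the B lineage: Ebf1, Pax5, Cd79a, Cd79b, Vpreb1, Igll1, Blnk, Rag1 and Cd24a. They were taken by symbol from the 2 deposited tables, which together list 18946 genes. All 9 had values, 8 of them in both tables, and Pax5 was read from the table of replicate 2 alone. The cells were BaF3, a mouse line that depends on interleukin-3 and that the labels call pro-B, kept in 10% serum with 2 ng/mL of the cytokine. Each of 3 groups had 2 libraries, prepared from cells sorted 24 h after nucleofection. The con group received pmax-Clover, a plasmid for a green fluorescent protein. The ICN group received pmax-Clover-ICN, which adds the intracellular part of NOTCH1, and the CTdel group received pmax-Clover-CTdel, which the study's design text calls a mutant of ICN. All groups thus carried Clover and came from 1 line, and the labels do not say whether replicates were separate cultures. P-values therefore measure only the spread between these libraries, which may be technical.

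B cells arise in the bone marrow under a chain of transcription factors. The E proteins and Ebf1 open B-lineage genes, and Pax5 then holds cells to that fate. A pro-B cell uses Rag1 to cut immunoglobulin genes and makes the surrogate light chain from Vpreb1 and Igll1, which pairs with the first heavy chain. Cd79a and Cd79b carry the signal of that pre-B receptor to the kinases Lyn and Syk and the adaptor Blnk. Notch signalling in early lymphoid cells is known for turning them from the B toward the T lineage.

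The 9 genes were nearly silent in BaF3 cells, with 1 exception. Cd79b was the only one at an FPKM of 1 or more in all 6 libraries. FPKM is a count of fragments scaled by transcript length and by the size of the library, so levels of different genes can be compared. Cd79a reached that level in 3 libraries, and the other 7 genes stayed below 1 everywhere, with 0.53 as their highest value. Of the 51 values of the 9 genes, 42 were below 1 and 11 were 0. Between 57.9% and 62.0% of all listed genes reached FPKM 1 in each library.

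Promoters of the B-lineage genes are shown for the receptor gene Cd79a, one of the 2 genes that could be tested, and for both genes of the surrogate light chain. Each stretch runs from 250 bases before the start site to 50 bases from it, on the strand of the gene, from RefSeq on GRCm38.p6. Cd79a lies at chr7:24897247-24897546 on the plus strand, Vpreb1 at chr16:16869206-16869505 and Igll1 at chr16:16863936-16864235, both on the minus strand. Capitals mark CAGGTG on either strand, the form of E-box that E proteins prefer.
Cd79a: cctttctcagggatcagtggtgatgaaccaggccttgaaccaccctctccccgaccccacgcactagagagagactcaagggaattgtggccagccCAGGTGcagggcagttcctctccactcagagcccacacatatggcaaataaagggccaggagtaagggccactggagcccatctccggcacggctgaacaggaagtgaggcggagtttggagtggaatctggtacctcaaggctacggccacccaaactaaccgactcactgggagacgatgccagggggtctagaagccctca
Vpreb1: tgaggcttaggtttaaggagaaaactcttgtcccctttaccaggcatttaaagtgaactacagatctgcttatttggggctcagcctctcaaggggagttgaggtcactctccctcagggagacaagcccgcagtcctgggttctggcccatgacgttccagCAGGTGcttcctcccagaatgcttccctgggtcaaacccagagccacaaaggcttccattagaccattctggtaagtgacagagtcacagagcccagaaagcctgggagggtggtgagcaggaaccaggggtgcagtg
Igll1: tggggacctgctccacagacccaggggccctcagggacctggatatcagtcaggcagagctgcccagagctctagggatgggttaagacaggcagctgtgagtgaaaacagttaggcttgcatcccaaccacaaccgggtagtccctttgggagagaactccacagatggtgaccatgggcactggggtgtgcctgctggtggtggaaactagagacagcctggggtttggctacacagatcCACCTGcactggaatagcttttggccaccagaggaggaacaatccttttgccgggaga
The E-box began 154 bases before the start of Cd79a, 88 before that of Vpreb1 and 8 before that of Igll1. Promoters were matched for 7 of the 9 genes, with 8 promoters in all since Ebf1 has 2, and 5 of the 8 held CAGGTG (Blnk, Cd79a, Igll1, Rag1 and Vpreb1), against 20.2% of 32851 promoters of the same length. The looser E-box CANNTG, which includes every CAGGTG, was in 7 of the 8, against 72.3%. TGGGAA, the core that the Notch partner RBPJ binds, was in 2 (Ebf1 at one of its start sites, and Rag1), against 25.6%. A palindromic form of the Ebf1 site was in 0 of the 8, against 0.904%. These matches describe letters in the windows and say nothing of binding in these cells.

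Both transcription factors were far below FPKM 1. Ebf1 (chromosome 11, from 44618100 in GRCm38.p6), which starts the B-cell programme, had an FPKM of 0.01 in both con libraries. It had 0.01 and 0.02 in ICN replicates 1 and 2, and 0 and 0.02 in CTdel. These values are at the rounding limit of the tables, and the groups overlapped. Pax5 (chromosome 4, 44524748 to 44710694), which fixes B-cell identity, had 0.04 in con replicate 2, 0.05 in ICN replicate 2 and 0.25 in CTdel replicate 2. With 1 library a group there is no spread to set that difference against.

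Rag1 (chromosome 2, 101638252 to 101649532), which encodes a subunit of the recombinase of antigen receptor genes, had 0 and 0.01 in the con libraries, 0 and 0.03 with ICN, and 0.02 and 0 with CTdel. Each group had a library at 0. Rag2, its partner, had between 0 and 0.08 in the 6 libraries.

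The surrogate light chain genes lie next to each other on chromosome 16, with 4415 bases between Igll1 (16860671 to 16863985) and Vpreb1 (16868401 to 16869255). Igll1 was at 0 in both con libraries, at 0 and 0.13 with ICN, and at 0.06 and 0 with CTdel. Among genes with a single transcript within 5% of the length of Igll1, the value above 0 seen most often was 0.06 or 0.07 in each library, which may be the value of 1 fragment. Igll1 stood at about 1 to 2 such steps in the 2 libraries where it was above 0.

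The con libraries had 0.14 and 0.26 for Vpreb1, the ICN libraries 0.33 and 0.37, and the CTdel libraries 0.14 and 0.13. Both ICN libraries lay above the other 4. The most frequent low value at its length was 0.07 in each library, so these are about 2 to 5 steps. Vpreb1 shares 32.5% of its stretches of 50 bases with Vpreb2, and reads of the pair cannot be assigned with certainty. Tested without a filter on low genes, the difference of CTdel from ICN was −0.25 ± 0.0586 (SE) on the log2(FPKM + 1) scale (limma adjusted p = 0.579, unadjusted p = 0.0138). It did not pass, and neither did any other gene in that fit.

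Blnk (chromosome 19, 40928927 to 40994221), the adaptor that links Syk to its downstream enzymes in B cells, had 0 and 0.07 in the con libraries, 0.03 and 0.08 with ICN, and 0 and 0.31 with CTdel. The value in CTdel replicate 2 stood alone, about 15.5 times the most frequent low value of 0.02 at that length. Cd24a (chromosome 10, 43579169 to 43584265), a surface glycoprotein of immature B cells and many other cells, showed the same outline. The con libraries had 0.09 and 0.14, the ICN libraries 0.12 and 0.18, and the CTdel libraries 0.03 and 0.53. The CTdel libraries were thus the lowest and the highest of the 6.

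Cd79a (chromosome 7, 24897497 to 24901858) encodes Ig-alpha, the first chain of the receptor's signalling pair. Its FPKM was 0 and 0.79 in con replicates 1 and 2, 1.35 and 2.08 in ICN, and 0.84 and 3.15 in CTdel. Both con libraries were below each of the other 4, but con replicate 2 was close to CTdel replicate 1, with 0.79 against 0.84. The means of con, ICN and CTdel were 0.395 ± 0.559, 1.72 ± 0.516 and 2.00 ± 1.63 (SD, n = 2). The 2 con libraries themselves differed, with 0 in replicate 1 and, in replicate 2, about 26.3 times the most frequent low value at that length.

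Cd79b (chromosome 11, 106311341 to 106314562) encodes Ig-beta, the second chain. The con replicates stood at 3.62 and 4.32, those of ICN at 6.36 and 4.34, and those of CTdel at 8.30 and 13.4. Both CTdel libraries lay above the other 4, while ICN replicate 2 was level with con replicate 2. The means of con, ICN and CTdel were 3.97 ± 0.495, 5.35 ± 1.43 and 10.9 ± 3.62 (SD, n = 2). Between 31.4% and 51.4% of listed genes stood higher than Cd79b in a library, so the gene was near the middle of the range. Cd79b was separate from Cd79a, whose highest value lay below the lowest of Cd79b. Each further step down the order by mean level (Cd79a, Vpreb1, Cd24a, Pax5, Blnk, Igll1, Ebf1, Rag1) joined genes with overlapping ranges.

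**Figure D1:**
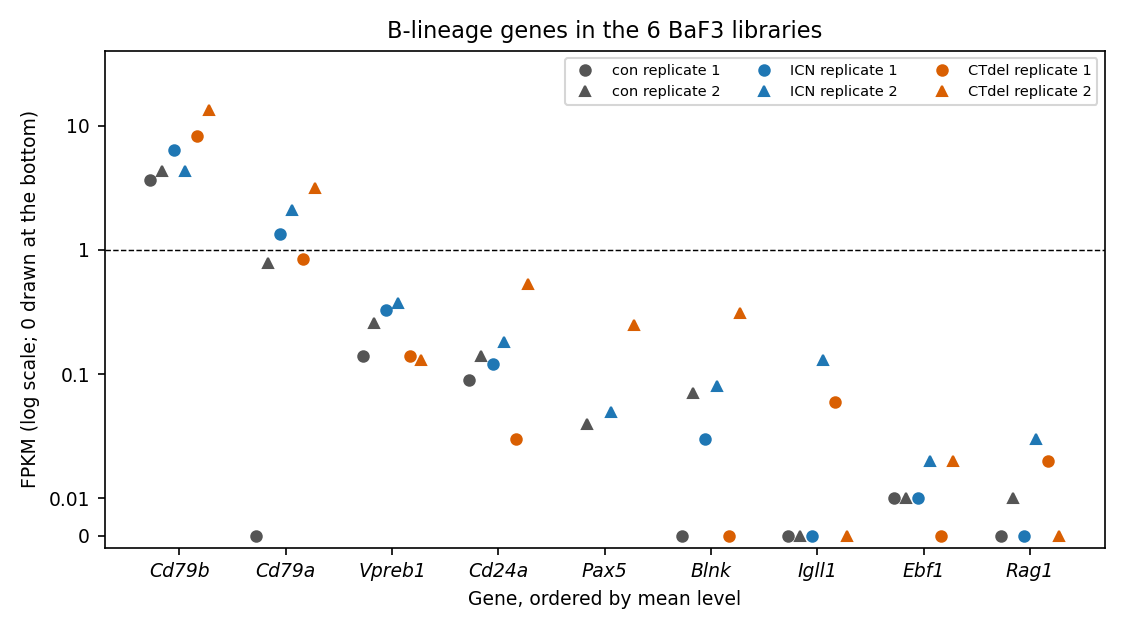
FPKM of the 9 B-lineage genes on a log axis, with each point 1 library, circles for replicate 1 and triangles for replicate 2, grey for con, blue for ICN and orange for CTdel. The dashed line is FPKM 1, and only Cd79b lies above it in all 6 libraries. Pax5 has points for replicate 2 alone.

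Only Cd79a and Cd79b could enter the test across genes, which took the 11050 genes that reached FPKM 1 in 2 or more libraries. Values were compared as log2(FPKM + 1) within tables with limma, with Benjamini-Hochberg adjustment and a threshold of 0.05. These changes understate the fold of low genes. Cd79a met the filter only through ICN replicates 1 and 2 and CTdel replicate 2 (1.35, 2.08 and 3.15), with con at 0 and 0.79. Its changes against con are thus those of a gene admitted where it was high, and are given as description. The 7 other B-lineage genes were below the filter or, for Pax5, in 1 table. Without the filter, the changes of the 6 of them in both tables lay between −0.25 and 0.17 over all 4 comparisons, with adjusted p of at least 0.354. No gene at all passed without the filter, so this does not set the 6 apart.

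With ICN against con, 0 of the 2 tested genes passed, where 0.0362% of all genes did. Cd79a had a log2 change of 1.01 ± 0.288 (SE; limma adjusted p = 0.243), positive in both replicates (1.23 and 0.78). Cd79b had 0.34 ± 0.302 (adjusted p = 0.601), with 0.67 in replicate 1 and 0.01 in replicate 2. At an unadjusted p under 0.05, Cd79a was among the 15.0% of genes that passed. The sign of the Cd79b change rests on ICN replicate 1, without which it was −0.10 (adjusted p = 0.861).

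With CTdel against con, 0 of 2 passed, against 1.41% of all genes. Cd79b had a log2 change of 1.22 ± 0.302 (limma adjusted p = 0.165), with 1.01 and 1.44 in replicates 1 and 2. Cd79a had 1.05 ± 0.288 (adjusted p = 0.206), with 0.88 and 1.21. Both genes were among the 11.8% with an unadjusted p under 0.05. Cd79b passed when only the CTdel and con libraries were fitted (adjusted p = 0.0101), a setting in which far more of all genes passed too. Over the libraries left out its change ran from 0.84 to 1.61. With a pseudocount of 0.1 the Cd79a change was 2.55 in CTdel and 2.58 in ICN, and it did not pass in either.

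CTdel against ICN gave 0 of 2 past the threshold, against 0.0181% of all genes. Cd79b was 0.89 ± 0.302 higher in CTdel (SE; limma adjusted p = 0.663), by 0.34 in replicate 1 and 1.43 in replicate 2. It was among the 7.13% of genes with an unadjusted p under 0.05, and without ICN replicate 1 its difference was 1.33. Cd79a differed by 0.04 ± 0.288 (adjusted p = 0.979), a mean of −0.35 and 0.43. Setting both forms against con together gave changes of 1.03 ± 0.249 for Cd79a and 0.78 ± 0.262 for Cd79b (adjusted p = 0.153 and 0.258). Again 0 of 2 passed, against 1.11% of all genes, and both were among the 15.4% with an unadjusted p under 0.05. For Cd79a, admitted to the test where it was high, this is again description. Over the libraries left out, the Cd79a change ran from 0.87 to 1.18, and that of Cd79b was at least 0.56. Each of those fits leaves 1 library in a group. All comparisons against con share its 2 libraries.

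Each ICN and CTdel library exceeded both con libraries for 2 of the 8 genes with values in both tables, Cd79a and Cd79b. The same order held for 12.3% of the 16799 genes in both tables. The transfected gene itself, Notch1, was at FPKM 0.89 and 1.72 with Clover alone, at 190 and 888 with ICN and at 84.9 and 25.4 with CTdel. The library with the most Notch1, ICN replicate 2, had the lowest Cd79b value of the 4 with an ICN plasmid, the second highest Cd79a value and the highest Vpreb1 value.

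CTdel replicate 2 was the highest of the 6 libraries for 4 of the 8 genes (Blnk, Cd24a, Cd79a and Cd79b), and for 10.3% of all genes in both tables. The summed FPKM of the B-lineage genes was 17.8 in that library, of which Cd79b gave 13.4, and 9.39 in CTdel replicate 1. It was 8.20 and 7.28 in ICN, and 3.86 and 5.64 in con. Within the table of replicate 2, CTdel had the highest value for 5 of 9 B-lineage genes, 11 of 18 lymphoid transcription factors and 13 of 19 signalling genes. ICN had it for 3, 4 and 3 of these. CTdel had it for 2 of 12 recombination genes and 6 of 13 progenitor and B-lineage surface genes, and ICN for 5 and 6. For mature B and plasma cell genes the counts were 3 of 13 for CTdel and 6 for ICN. In replicate 2, CTdel also led for 6 of 14 T-cell and 6 of 12 myeloid markers, and ICN for 8 and 4. In the table of replicate 1, CTdel led for 3 of 8 B-lineage genes and ICN for 4. For lymphoid factors these counts were 3 and 5 of 15, and for signalling genes 10 and 8 of 20. For recombination, surface and mature B genes they were 2 and 2 of 12, 6 and 3 of 13, and 3 and 4 of 12. The share over all genes was not computed, so these counts are description. As examples chosen after their values were seen, Ms4a1 and Ly6d were both read from the table of replicate 2 alone. Ms4a1 (CD20) had 0.81 in CTdel against 0.24 in both con and ICN. The early B-cell antigen gene Ly6d had 1.43 in CTdel against 0.30 in con and 0.82 in ICN. Whether a few B cells or a higher level in all cells gave these values was not tested, and in bulk RNA the share of expressing cells and the RNA per cell cannot be told apart.

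Among the 3 genes whose within-table changes against con were most like those of Cd79b, over the 4 libraries with an ICN plasmid, were Slco3a1 and Zfp710 (Euclidean distance 0.176 and 0.203 in log2 units). For Cd79a the 3 were Etv6, Fig4 and Ptpn14 (0.355, 0.359 and 0.396). Etv6 went from 17.3 and 20.3 in con to 38.1 and 38.4 in ICN and 39.9 and 44.0 in CTdel. Slco3a1, Zfp710, Etv6, Fig4 and Ptpn14 are in none of the B-lineage lists.

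The label pro-B was set against wider lists of B-cell genes. Of 18 lymphoid transcription factors with values, 8 had a con mean of at least 1, and 10 stayed below 1 in all their libraries. In con, ICN and CTdel the E protein gene Tcf3 averaged 46.5 ± 12.6, 31.7 ± 2.03 and 34.9 ± 10.1 (SD, n = 2), and the progenitor factor Myb 67.4 ± 20.3, 38.2 ± 16.7 and 30.2 ± 3.59. Ikzf1 and Foxp1, also used in other blood cells, had con means of 10.5 ± 2.92 and 10.9 ± 3.63. Among the 10 low factors, Spib had at most 0.87, and Foxo1 and Pou2af1, read from the table of replicate 2 alone, at most 0.11 and 0.35. These examples were chosen after their values were seen. Among surface proteins, the interleukin-7 receptor Il7r, which pro-B cells need for growth, had at most 0.08. Kit and Flt3, receptors of early progenitors, were listed at 0 in con, with Kit read from the table of replicate 1 alone.

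Recombination genes split the same way. Of 12 with values, 11 were tested, and these serve DNA repair or chromatin in all cells. Hmgb1 and Hmgb2, chromatin proteins that aid the recombinase, had 262 ± 25.1 and 215.0 ± 1.87 in con, and Rag2 was the exception near 0. In no comparison did any of the 11 pass, where 0.0181% to 1.41% of all genes did. Dclre1c, the nuclease Artemis, averaged 10.2 ± 1.75 in con against 20.5 ± 7.01 in ICN (log2 change 0.91, limma adjusted p = 0.221), and Xrcc6, which encodes Ku70, had 28.3 ± 7.21 and 16.1 ± 2.85 (−0.76, adjusted p = 0.299). Xrcc6 in ICN ranged from −1.15 to −0.37 over the libraries left out.

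Signalling genes below the receptor were expressed, unlike Blnk. Of 20 genes, 15 had a con mean of at least 1 and 16 were tested. In CTdel against con, 1 of these rose and 0 fell, against 1.41% of all genes called, with a median change of 0.61 beside −0.06 over all genes. Lyn, the kinase that first phosphorylates Cd79a and Cd79b, went from 35.1 ± 6.28 to 155 ± 13.9 (SD, n = 2; log2 change 2.12, limma adjusted p = 0.0272). Leaving out CTdel replicate 2 ended that call (0.119), as did leaving out con replicate 1 or 2 (0.0667 and 0.0523) or using no filter (0.149). Syk, which binds the phosphorylated pair, had 16.8 ± 0.580 in con and 50.9 ± 8.57 in CTdel (1.54, adjusted p = 0.0501). Syk passed with a filter of FPKM 5 (0.0401) and with only the groups compared (0.00128), a setting in which far more of all genes passed too. Leaving out ICN replicate 1 or 2 amounts to that same fit and adds no further support. Syk did not pass with a con or CTdel library left out. Over all libraries left out its change ran from 1.30 to 1.77. Ptpn6, the phosphatase that dampens the receptor, had 44.3 ± 20.6 and 109 ± 12.0 (1.35, adjusted p = 0.162).

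In ICN the same list had a median change of 0.15 beside 0.00 over all genes, and 0 of 16 passed, where 0.0362% of all genes did, with Lyn at 0.80 (adjusted p = 0.272) and Syk at 0.85 (0.238). The change of Lyn in CTdel exceeded that in ICN by 1.31, a difference that did not pass (adjusted p = 0.377).

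**Figure D2:**
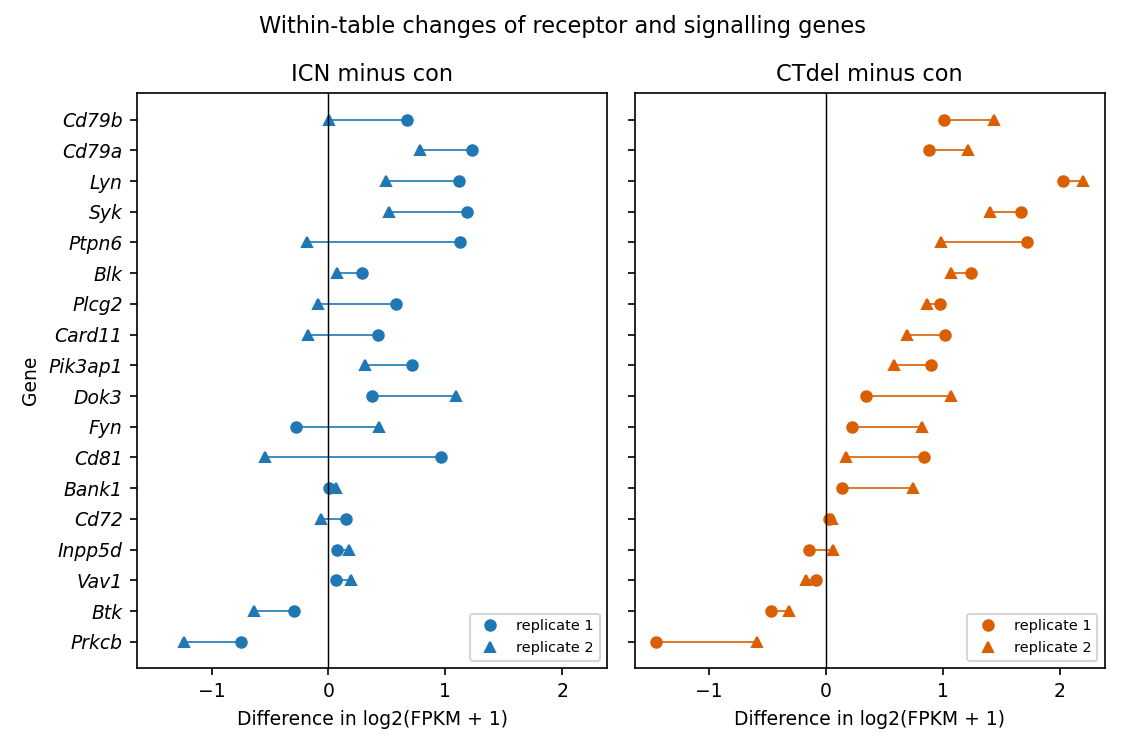
Differences in log2(FPKM + 1) from the con library of the same table for Cd79b, Cd79a and the 16 tested signalling genes, with ICN on the left and CTdel on the right. Circles are replicate 1, triangles replicate 2, and the line joins them. Lyn lies farthest right in CTdel, while Cd79b in ICN replicate 2 lies at 0.01.

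Other genes of the wider B-cell lists that changed are not confined to B cells. Pou2f2, which encodes the lymphoid factor Oct-2, rose in CTdel from 1.22 ± 0.0707 to 9.88 ± 2.26 (SD, n = 2; log2 change 2.28, limma adjusted p = 0.0205), and was 3.48 ± 0.0707 in ICN (1.01, adjusted p = 0.189). Ptprc, the phosphatase CD45 of all white blood cells, rose from 55.1 ± 31.8 to 217 ± 53.9 (2.06, adjusted p = 0.0263), and had 113 ± 41.0 in ICN (1.09, adjusted p = 0.176). Both also rose with the forms pooled in 1 contrast (1.65 and 1.58, adjusted p = 0.0336 and 0.0373). The CTdel calls of both ended without CTdel replicate 2 (0.0626 and 0.135) and without a filter (0.140 and 0.139), and that of Ptprc also without con replicate 2 (0.0531) and with no table term (0.104). With the forms together, the Pou2f2 call ended without con replicate 1 or 2 (0.0594 and 0.102) and without a filter (0.190). The Ptprc call ended without con replicate 2 (0.117) or CTdel replicate 2 (0.0575), without a filter (0.185), with no table term (0.135) and with quantile normalization (0.0567). In ICN, the change of Ptprc without ICN replicate 1 was 1.15.

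Cd74 and Cd80, antigen presentation genes of the wider B-cell lists, had large differences that did not pass with all groups fitted. Ciita, Cd40 and Cd86 of the mature B list stayed low, with at most 0.29, 0.24 and 0.23 in any library. Cd74, the invariant chain, averaged 6.61 ± 1.43 with Clover alone, 54.0 ± 29.2 with ICN and 35.0 ± 17.0 with CTdel (limma adjusted p = 0.148 and 0.141). Cd80, a costimulatory ligand, had 3.61 ± 2.13, 27.8 ± 13.5 and 21.2 ± 12.0 (adjusted p = 0.169 and 0.152). Both passed when only the groups compared were fitted, in ICN (0.00893 for Cd74, 0.0160 for Cd80) and in CTdel (3.22e-04 and 1.89e-04). Far more of all genes passed too in that setting. Leaving out a library of the third group amounts to the same fit. The ICN changes rest on the library kept: 3.67 for Cd74 and 3.68 for Cd80 without ICN replicate 1, and 1.84 and 1.61 without ICN replicate 2. Those fits keep 1 ICN library and so hold no spread within ICN. Without CTdel replicate 2 the CTdel change of Cd74 was 2.86. Xbp1, a secretory factor that plasma cells need, had 123 ± 38.8, 65.1 ± 13.6 and 80.4 ± 6.04 (adjusted p = 0.201 and 0.383).

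Markers of other blood cells were measured beside the B-lineage genes. Of 13 myeloid markers, 6 had a con mean of at least 1, while Cd14, Cebpa and Elane were listed at 0 in con. Cd14 was in the table of replicate 1 alone and Cebpa in that of replicate 2 alone. Their summed FPKM was 131 to 206 in con, 267 to 409 in ICN and 681 to 690 in CTdel. In CTdel 3 of 8 tested rose, against 144 of all 11050 genes (1.41% were called in either direction). They were Spi1, Tyrobp and Cd68 (log2 change 3.03, 2.34 and 1.41, limma adjusted p = 0.0170, 0.0200 and 0.0364). The calls of Tyrobp and Cd68 ended without CTdel replicate 2 (0.0604 and 0.323), and that of Cd68 also without any other CTdel or con library (0.0955 to 0.238). With no table term both calls ended (0.200 and 0.211), and without a filter all 3 did (0.112 to 0.146). This order of the groups is that of Cd79b and Lyn, and the part of it in their changes was not tested. Of 8 mast cell and basophil markers, 3 had a con mean of at least 1, led by Gata2 at 215.0 ± 32.2, and their sum, which Gata2 carries, was 200 to 268 in con, 88.5 to 118 in ICN and 64.8 to 87.3 in CTdel. In CTdel 2 of the 3 tested fell, against 12 of all 11050 genes. Gata2 fell to 68.2 ± 9.18 (log2 change −1.64, limma adjusted p = 0.0261) and Cpa3 from 16.4 ± 14.5 to 3.10 ± 2.06 (−1.88, adjusted p = 0.0437). Gata2 lost the call without any 1 of the con and CTdel libraries (0.0602 to 0.230) and without a filter (0.112). Cpa3 lost it without con replicate 1 or 2 or CTdel replicate 1 (0.0521 to 0.237), without a filter (0.251), with no table term (0.446) and under both rescalings (0.0505 in each). The third, Hdc, averaged 0.460 ± 0.0990 with Clover alone, 5.19 ± 3.20 with ICN and 4.31 ± 4.49 with CTdel, and did not pass. Kit, Mcpt8 and Prss34 were listed at 0 in con, each in the table of replicate 1 alone. Erythroid and megakaryocyte markers reached a con mean of 1 in 6 of 8, with Hba-a1 at 348 ± 325 and Itga2b at 129 ± 27.4. Their summed FPKM was 318 and 736 in con, 272 and 462 in ICN, and 220 and 370 in CTdel. Hba-a1 alone had 118 and 578 in con, 155 and 377 in ICN, and 83.2 and 216 in CTdel. T-cell markers reached a con mean of 1 in 1 of 14, with Cd3e, Gata3, Zap70 and Cd28 at 0 in con. Their sums were 2.77 to 4.95 in con, 8.81 to 10.1 in ICN and 4.98 to 7.66 in CTdel. Of the B-lineage genes 1 of 9, Cd79b, reached that level in con, and Cd79a did so by mean in ICN and CTdel (1.72 and 2.00). The other 7, with Ebf1, Pax5 and Rag1 among them, stayed below FPKM 1 in all their libraries. Most of these markers of the pro-B cell that the label names were thus near 0, and the depth behind them is unknown.

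**Figure D3:**
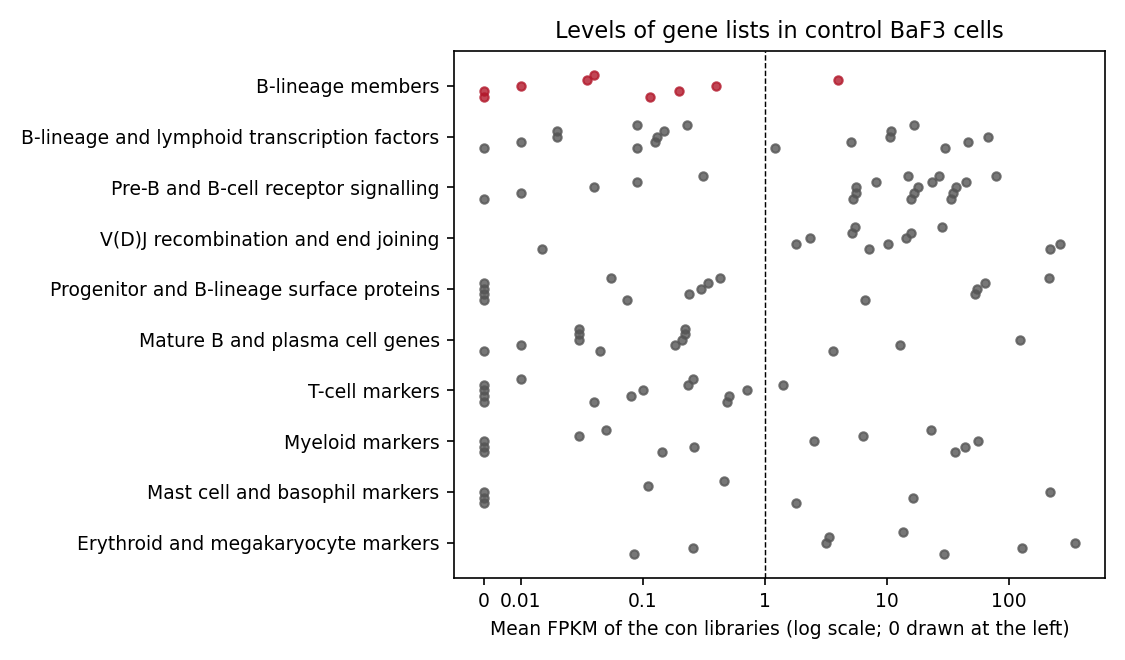
Mean FPKM of the con libraries for each gene with values, on a log axis with 0 drawn at the left, by list; red points are the 9 B-lineage genes and grey points the wider lists. A gene in 1 table has that table's value. The dashed line is FPKM 1, which 1 of 9 B-lineage genes and 15 of 20 signalling genes exceed.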

How the data were processed

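Polyadenylated RNA libraries of 6 BaF3 samples were compared, 2 in each of 3 groups. Per the file headers, the authors deposited gene-level FPKM in 2 tables, replicates 1 in the first and replicates 2 in the other. Tools in the submitters' processing notes are RSEM, HISAT2 and Bowtie2, and the genomes mm10 and hg19. The sources used here give neither their versions nor their roles. FPKM keep no read totals, so no interval or detection limit was computed, and sums ran from 489693 to 507894 per library. The most frequent value above 0 among genes of like transcript length (within 5%, GENCODE M21) served as an approximate step of 1 fragment, which was not checked against reads and did not fall with length in every library. The tables hold 17877 and 17868 genes, 16799 shared, and 26 symbols turned into dates were restored from Gene IDs.

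Values were tested across all 11050 genes that reached FPKM 1 in 2 or more libraries, on the log2(FPKM + 1) scale, 2-sided, by limma 3.58.1 under R 4.3.3, with an intensity trend. Terms for group and for table left the model 2 residual degrees of freedom. P-values were adjusted by Benjamini-Hochberg. The fit was tested on simulated data. Same-numbered libraries did not all deviate together (Pearson r over genes of their replicate differences −0.0988 for con and ICN, 0.326 for con and CTdel, 0.236 for ICN and CTdel), but each number is a table of its own, so the table stayed in the model.

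The B-lineage genes and all lists were chosen with earlier results of these data known. Named were the 9 genes, Notch1, from each wider list the genes past the threshold, the 2 highest in level and the 2 with the largest change, and the 3 genes most like a tested gene with a change of at least 1. Others are named only for levels near 0 or, where said, after their values were seen. Alternatives changed the pseudocount, the filter, the table term, the trend, the scaling, the groups fitted or left out a library. Genes of the lists without values are not analysed here, and some genes that the rule would name are not reported here.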

Additional observations from a re-analysis of the deposited data

How the results depend on the processing

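Counts of B-lineage genes past the threshold stayed at 0 in ICN against con under all 14 settings. In CTdel against con the count was 1 when only the groups compared were fitted, and 0 to 1 over the libraries left out. It was 0 to 1 in CTdel against ICN and 0 to 2 for both forms over the libraries left out. Without the replicate block, that is with no term for the table, 0 of 2 passed in each comparison, and 3, 130, 2 and 132 genes passed (ICN, CTdel, CTdel against ICN, both forms), against 4, 156, 2 and 123. Of all genes, 0 passed in each comparison without a filter. With only the groups compared, 162 passed in ICN and 730 in CTdel. In CTdel against ICN, 0 passed with a pseudocount of 0.1 and 1 with a filter of FPKM 5. Leaving out a library gave 11 to 1470 genes in ICN, 109 to 731 in CTdel, 2 to 891 in CTdel against ICN and 48 to 1240 for both forms. Cd79b in ICN ranged from −0.10 to 0.78 over libraries left out, and Cd79a in CTdel against ICN from −0.27 to 0.35 and was −0.025 with a pseudocount of 0.1. Dclre1c in CTdel ranged from −0.052 to 0.46. The cause of these shifts was not tested. The stricter filter removes Cd79a and gives it no value. A group left with 1 library is assumed to vary like the others, and leaving out a library of the third group amounts to fitting the other 2 alone. Of the 7 untested genes, all are below FPKM 1, and the depth behind them is unknown.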
